A study of Rattus norvegicus with 20 samples.

Results

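Genes of the lysosome and of autophagy were followed in the hippocampus of female rats. The 38 genes were listed by symbol for their known roles, by a rule that uses no measured value, and all 38 were found among the 17168 genes of both tables. Earlier results of these data were known when the genes were chosen. Of the 38 genes, 37 were listed under their own symbol, and Ctsl was listed under its older symbol Ctsl1. The mRNA of 20 rats aged 4 months was measured by RNAseq, with 1 library per rat. A genotype table held 5 wild-type rats without treatment (WTNT) and 5 transgenic rats without treatment (TGNT), and a treatment table held 4 other TGNT rats and 6 transgenic rats fed diazoxide (DZ) together with dibenzoylmethane (DIB) from day 52 on (TGTR). Transgenic rats were of the TgF344-AD line, a model of Alzheimer's disease on the Fisher 344 background, in which human Swedish APP and a human presenilin lacking an exon are both driven by the prion promoter. The other rats ate normal chow. Treated wild-type rats were not analysed here, DZ and DIB were given together so their parts cannot be told apart, and the tissue is the left hippocampus per the labels and the right one per the study's methods.

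Lysosomes are acidic organelles that break down proteins, lipids and sugars delivered by endocytosis and autophagy. In autophagy, a kinase complex around Ulk1 and a lipid kinase complex around Becn1 start a membrane that grows, is decorated with LC3 and GABARAP proteins, encloses its cargo and fuses with a lysosome. Tfeb and Tfe3 are transcription factors that turn on many lysosome and autophagy genes when nutrients are scarce, by binding a short promoter motif called the CLEAR element. Swollen autophagic organelles in neurites are a known feature of Alzheimer's disease.

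Because Tfeb and Tfe3 bind that motif, it was looked for in the promoters of the members. RefSeq windows of 250 bases before to 50 bases after the gene start, on the GRCr8 rat assembly, were held for 30 members. Atg9a, Atp6v1b2, Atp6v1h, Becn1, Ctsb, Hexa, Map1lc3a and Psap had none. The core hexamer CACGTG lay in 8 of the 30 windows (26.7%), against 6.42% of all 33469 windows. The longer TCACGTGA, the centre of the CLEAR element, which contains that hexamer, lay in 5 of the 30 (16.7%), against 0.777% of all windows. A single window was taken per member, while the 33469 windows were not limited to the genes measured here, so the shares have unlike backgrounds. Both motifs read the same on either strand, and a match is a description of the letters, not a bound site. The parts of the promoters that hold the longer motif are shown for its 5 genes, with TCACGTGA in capitals for 4 of them and CACGTG in capitals for Lamp1, each on the strand of its gene.
Atp6v0d1, chr19:50357283-50357312, minus strand: ccccattgtggTCACGTGAgatgcagtgcg
Cln3, chr1:190597950-190597979, minus strand: cacgggtactgTCACGTGAtccccaacctg
Ctsd, chr1:206968814-206968843, minus strand: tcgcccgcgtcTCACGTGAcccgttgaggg
Mcoln1, chr12:6358250-6358279, plus strand: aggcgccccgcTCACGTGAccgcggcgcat
Lamp1, chr16:83075091-83075251, minus strand: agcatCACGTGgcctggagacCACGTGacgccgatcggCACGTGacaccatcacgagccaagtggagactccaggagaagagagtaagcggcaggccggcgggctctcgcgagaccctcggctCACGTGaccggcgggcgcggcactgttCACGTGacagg
The Lamp1 promoter held CACGTG 5 times, at 183, 167, 150, 65 and 38 bases before the start. The other 3 windows with the hexamer alone were those of Atg5, Gaa and Glb1.

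Estimated counts per rat summed to 5848458 to 9926088 in the genotype table and to 9215039 to 14175594 in the treatment table. Values per rat are given in RPM, the authors' read counts scaled to a common library total with TMM factors within a table. RPM are therefore compared only within a table, and fold changes come from edgeR's quasi-likelihood fit of the counts of all genes. Called genes had a fold change of at least 1.5 together with an adjusted p under 0.05. App, which counts rat and human reads together and so checks the genotype, was at 1102 ± 47.5 RPM in WTNT and 2187 ± 122 in TGNT rats (mean ± SD). This was a log2 fold change of 1.00, with an adjusted p = 2.4493e-07 in edgeR's quasi-likelihood test. In the treatment table, choroid plexus RNA stood out in TGTR replicate 5, with 24768 counts of Ttr, and in replicate 6, with 1326, against 10 to 127 in the other 8 rats. Without both of these rats the log2 fold changes of TGTR over TGNT went from 0.07 to 0.04 for Ctsb, from 0.15 to 0.12 for Npc1 and from 0.12 to 0.09 for Hexa. All 10 neuronal markers were present in every rat, with at least 353 counts each in the genotype table. In TGNT against WTNT rats 0 of these 10 were higher, as were 3 of 7 astrocyte, 1 of 7 choroid plexus and 2 of 5 endothelial markers. In TGTR against TGNT rats 0 of 10 neuronal, 0 of 7 astrocyte and 1 of 11 microglial markers were higher, but 7 of 7 choroid plexus and 5 of 5 endothelial markers were. The choroid plexus markers summed to 2830 and 133 RPM in TGTR replicates 5 and 6. In TGTR replicates 1 to 4 they summed to 5.07, 3.60, 4.36 and 6.71 RPM, against 6.60 to 17.7 RPM in TGNT rats. None of the 10 neuronal markers had an unadjusted p under 0.05 in edgeR's quasi-likelihood test in either comparison. That threshold held 2 of 7 oligodendrocyte markers, lower in TGNT than in WTNT rats, against 3.89% of genes averaging 10 counts or more. In the treatment comparison it held 4 of 7 choroid plexus and 2 of 5 endothelial markers, all higher in TGTR rats, against 6.14%. No other marker passed it in either comparison. Summed RPM of the neuronal markers ran from 7165 to 9135 in WTNT and from 7229 to 8070 in TGNT rats of the genotype table. Markers of a cell type share rats and scaling and are not independent. In whole hippocampus, spread between rats, fewer cells of a type and less RNA per cell cannot be told apart.

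None of the 38 members was called between TGNT and WTNT rats, where 0.0116% of all genes were called (2 of 17168). At an unadjusted p under 0.05 there were 2 members, Gla, higher in TGNT rats, and Ulk1, lower. The same threshold held 3.23% of all genes, and 3.89% of the 11356 genes that averaged 10 counts or more. DESeq2, limma-trend and edgeR's exact and likelihood ratio tests also called 0 members. The log2 fold changes ran from -0.17 for Tfeb to 0.28 for Gusb with a median of 0.02. Of the members, 23 (60.5%) were higher in TGNT rats, against 52.4% of the genes with at least 10 counts. This count rests on single rats: without WTNT replicate 4 it was 17 of 38, against 48.5% of those genes. Without WTNT replicate 5 it was 25 of 38, against 52.6%. For 36 members the 95% interval of the fold change stayed within 1.5-fold in either direction, and the other members were Gusb (0.905 to 1.63) and Tfeb (0.621 to 1.27). These were among the members with the fewest reads, at 18 to 51 and 22 to 49 counts per rat.

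**Figure D1:**
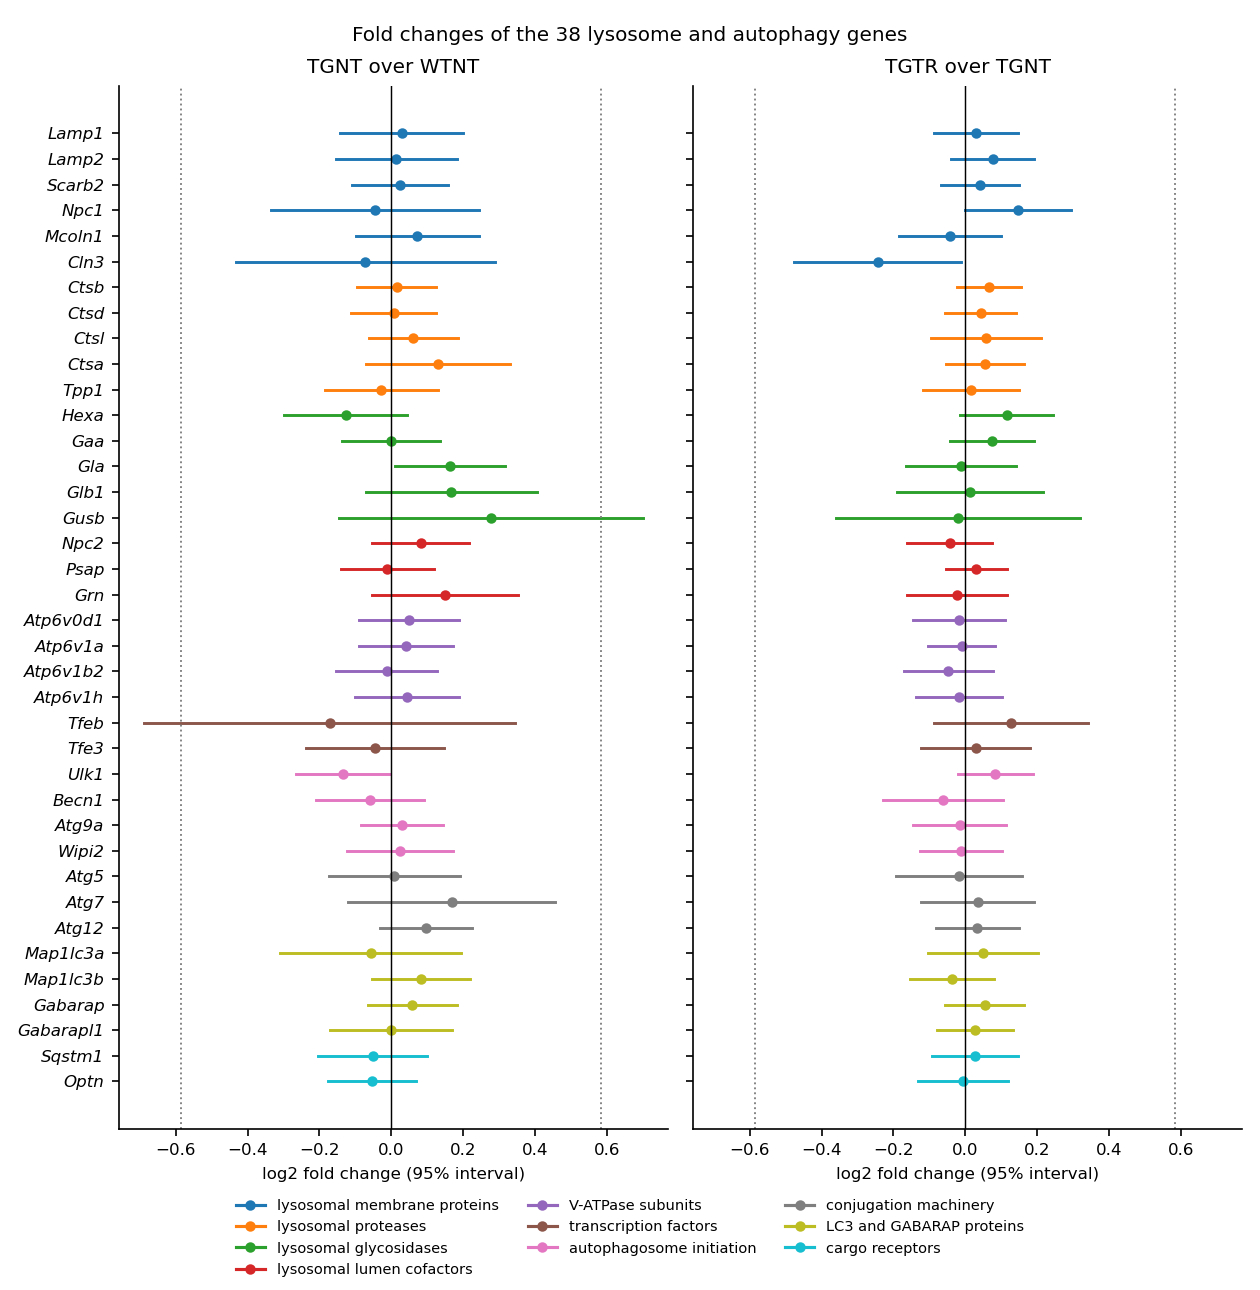
Log2 fold change (x axis) of each of the 38 members (y axis, coloured by role), TGNT over WTNT on the left and TGTR over TGNT on the right. Points are edgeR estimates, bars are 95% intervals and dotted lines mark 1.5-fold; only Gusb and Tfeb, on the left, have intervals that cross a dotted line.

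Of the 6 lysosomal membrane proteins, 4 were higher in TGNT rats, or 1 without WTNT replicate 4, and their log2 fold changes lay between -0.07 and 0.07. Lamp1, the abundant glycoprotein that lines the lysosome, was at 313, 352, 376, 311 and 317 RPM in WTNT replicates 1 to 5. In TGNT rats it was at 301, 308, 333, 367 and 386 RPM. The ranges overlapped almost wholly. Lamp1 thus differed by 0.03 ± 0.08 (SE) on the log2 scale, with an adjusted p = 1 in edgeR's quasi-likelihood test, and it turned to -0.03 without TGNT replicate 5. Lamp2, needed for autophagosome fusion and for chaperone-mediated autophagy, Scarb2, the receptor that carries glucocerebrosidase to lysosomes, and Mcoln1, a lysosomal calcium channel, differed by 0.01, 0.03 and 0.07 on the log2 scale. Cln3, the gene of juvenile Batten disease, had few reads, at 23 to 63 counts per rat. Its RPM were 5.14, 6.44, 5.71, 3.93 and 5.10 in WTNT and 5.62, 4.98, 3.93, 5.87 and 4.86 in TGNT rats, again with overlapping ranges. On the log2 scale Cln3 differed by -0.07 ± 0.17 (adjusted p = 1 in edgeR's quasi-likelihood test).

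Proteases differed little. Ctsd, the main aspartic protease of the lysosome, was at 156, 164, 172, 149 and 165 RPM in WTNT rats and at 162, 167, 165, 155 and 158 RPM in TGNT rats. All 5 TGNT values lay inside the WTNT range. Ctsd differed by 0.01 ± 0.06 on the log2 scale (adjusted p = 1 in edgeR's quasi-likelihood test). Ctsb and Ctsl, the cysteine proteases, differed by 0.02 and 0.06, and Tpp1, the tripeptidyl peptidase lost in another Batten disease, by -0.03. The difference of Ctsa, which also protects beta-galactosidase and neuraminidase, was 0.13 ± 0.09. The edgeR intervals of all 5 folds together ran from 0.880 to 1.26.

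Glycosidases spread more widely, from -0.13 for Hexa to 0.28 for Gusb. Gla, the alpha-galactosidase lost in Fabry disease, was at 32.3, 33.4, 32.7, 30.7 and 32.2 RPM in WTNT rats. In TGNT rats it was at 33.0, 34.5, 39.4, 35.8 and 37.4 RPM. In 4 of the 5 TGNT rats Gla was above every WTNT rat, and TGNT replicate 1 lay inside the WTNT range. Gla had a log2 fold change of 0.16 ± 0.07, with an adjusted p = 1 in edgeR's quasi-likelihood test, and the two-sided exact permutation p of the RPM was 0.0159. Without TGNT replicate 3 the log2 fold change was 0.12. Glb1, the beta-galactosidase, had a log2 fold change of 0.17 ± 0.11, and Gaa, which breaks down lysosomal glycogen, stood at 139 RPM in both groups. Gusb, the beta-glucuronidase, was at 3.07 and 3.35 RPM in WTNT replicates 4 and 5 and at 4.37 to 6.35 RPM in the other 8 rats. Hexa, a subunit of the enzyme that degrades gangliosides, was at 33.5, 37.4, 33.7, 37.2 and 33.0 RPM in WTNT and at 34.6, 34.2, 33.0, 28.03 and 29.9 RPM in TGNT rats (exact permutation p = 0.127).

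Among the lumen cofactors, Grn encodes progranulin, which is made largely by microglia and neurons and is split into granulins in the lysosome. It was at 31.5, 31.9, 37.5, 27.5 and 37.9 RPM in WTNT rats and at 34.6, 41.5, 36.0, 38.04 and 34.0 RPM in TGNT rats. The 2 highest values were in TGNT rats and the 3 lowest in WTNT rats, but the ranges overlapped. For Grn the log2 fold change was 0.15 ± 0.10 (adjusted p = 1 in edgeR's quasi-likelihood test), and 0.08 without WTNT replicate 4. Npc2, which hands cholesterol to Npc1, differed by 0.08 and Psap, the precursor of the saposins, by -0.01. Markers of microglia moved in the same direction as Grn and Gla: 10 of 11 were higher in TGNT rats, by 0.11 on the log2 scale at the median, none at an unadjusted p under 0.05, and their summed RPM ran from 204 to 210 in WTNT and from 206 to 236 in TGNT rats. Their part in these differences was not tested.

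The transcription factors of the pathway had low counts. Tfeb was at 5.30, 4.09, 5.33, 5.97 and 3.82 RPM in WTNT rats and at 3.37, 7.39, 2.79, 3.87 and 4.36 RPM in TGNT rats. A single rat, TGNT replicate 2, was above all WTNT rats, and 2 TGNT rats were below all of them. For Tfeb the log2 fold change was -0.17 ± 0.24 (adjusted p = 1 in edgeR's quasi-likelihood test), and without TGNT replicate 2 it was -0.44, also with an adjusted p = 1. Without TGNT replicate 3 it was -0.05, and without TGNT replicate 1 it was -0.09. Tfe3 was at 24.7 ± 2.53 RPM in WTNT and 23.8 ± 1.70 RPM in TGNT rats. For the motif these factors bind, the 5 genes with TCACGTGA had a median log2 fold change of 0.03, and so did the 25 members whose windows lack it.

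Ulk1, the kinase that starts autophagy, was the only member whose RPM did not overlap between WTNT and TGNT rats. It was at 56.7, 59.5, 63.1, 57.7 and 64.7 RPM in WTNT rats and at 53.3, 56.2, 55.9, 55.0 and 53.3 RPM in TGNT rats. The highest TGNT rat was just below the lowest WTNT rat. Of the genes with at least 10 counts, 0.652% had groups that did not overlap. Ulk1 had a log2 fold change of -0.14 ± 0.06, with an adjusted p = 1 in edgeR's quasi-likelihood test, and the two-sided exact permutation p was 0.00794, the smallest that 5 rats against 5 can give. The other starters of the membrane differed by less: -0.06 for Becn1, 0.03 for Atg9a, the lipid scramblase of the seed vesicles, and 0.02 for Wipi2, which recruits the conjugation machinery.

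The conjugation genes Atg5, Atg7 and Atg12, whose products take part in attaching LC3 to the membrane, had log2 fold changes of 0.01, 0.17 and 0.10. Map1lc3b, the LC3 form used as the usual marker of autophagosomes, was at 166, 161, 166, 163 and 144 RPM in WTNT rats. In TGNT rats it was at 166, 153, 166, 183 and 176 RPM. TGNT replicates 4 and 5 were above all WTNT rats, and WTNT replicate 5 was below all others. For Map1lc3b this was a log2 fold change of 0.08 ± 0.06 (adjusted p = 1 in edgeR's quasi-likelihood test), and 0.04 without TGNT replicate 4. Gabarap and Gabarapl1, relatives of LC3 that act later in closure and fusion, differed by 0.06 and 0.00 and Map1lc3a by -0.06.

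Cargo receptors tie ubiquitin-tagged cargo to LC3. Sqstm1, or p62, was at 370, 346, 327, 344 and 332 RPM in WTNT rats and at 370, 370, 308, 303 and 303 RPM in TGNT rats. The TGNT rats fell into a high pair at the top of the WTNT range and 3 rats below that range. Sqstm1 differed by -0.05 ± 0.07 on the log2 scale (adjusted p = 1 in edgeR's quasi-likelihood test), and by -0.11 without TGNT replicate 2 and -0.03 without WTNT replicate 1. Optn, the receptor optineurin, differed by -0.05.

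**Figure D2:**
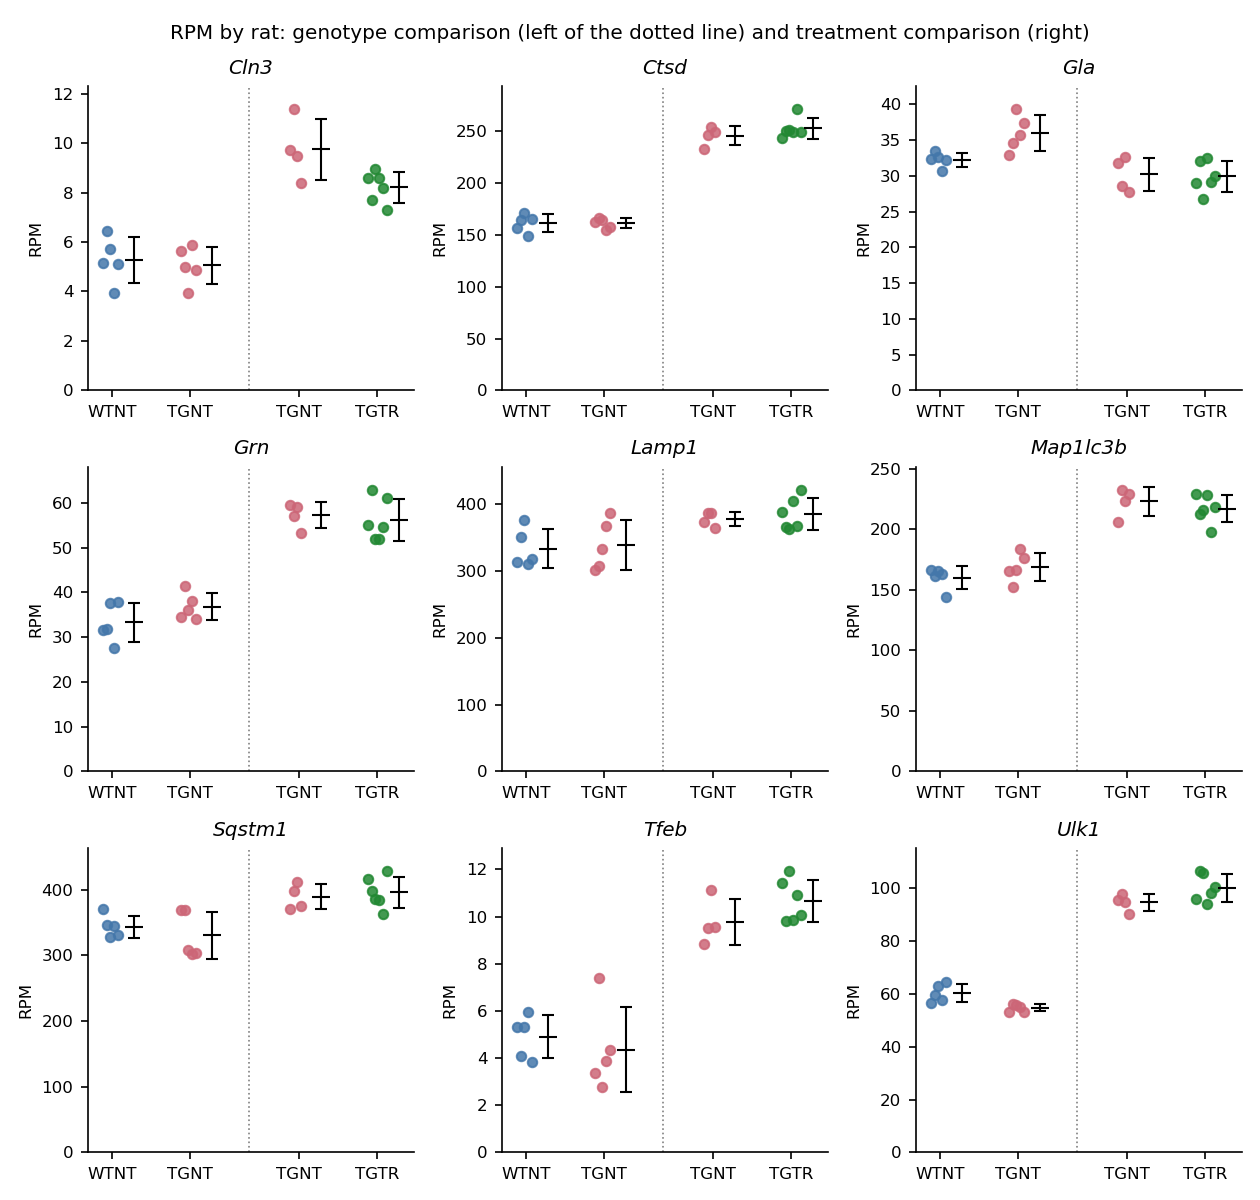
RPM (y axis, from 0) of 9 members in each rat, with the genotype comparison left of the dotted line and the treatment comparison right of it; each point is a rat and black bars are the mean ± SD. In the genotype comparison Ulk1 does not overlap between groups and Gla overlaps in 1 TGNT rat; in the treatment comparison all 6 TGTR rats lie below 3 of the 4 TGNT rats for Cln3. Levels are not comparable across the dotted line.

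Between TGTR and TGNT rats, again 0 of the 38 members were called, as were 0% of all genes. At an unadjusted p under 0.05 there was 1 member, Cln3, lower in TGTR rats, where 4.91% of all genes and 6.14% of the 12029 genes with at least 10 counts passed that threshold. The number of members called was 0 by DESeq2, limma-trend and edgeR's exact and likelihood ratio tests too. Log2 fold changes ran from -0.24 for Cln3 to 0.15 for Npc1, with a median of 0.03. Of the members, 22 (57.9%) were higher in TGTR rats, against 50.1% of the genes with at least 10 counts. Library size as the only scaling moves the genes up together: the median of those genes went from 0.0002 to 0.0375 on the log2 scale, 65.6% of them were higher, and so were 33 of the 38 members. All 38 intervals of the fold change stayed within 1.5-fold in either direction. No member had groups that did not overlap, where 1.45% of the genes with at least 10 counts did.

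Cln3 was at 9.73, 11.4, 9.47 and 8.38 RPM in the 4 TGNT rats. In the 6 TGTR rats it ran from 7.30 over a median of 8.37 to 8.96 RPM. All TGTR rats were below 3 of the 4 TGNT rats, and TGNT replicate 4 lay inside the TGTR range. Cln3 had a log2 fold change of -0.24 ± 0.11, with an adjusted p = 0.98985 in edgeR's quasi-likelihood test, and the two-sided exact permutation p was 0.0238. It was -0.16 without TGNT replicate 2 and -0.21 without both rats of the highest Ttr counts. Among the other membrane proteins, Lamp1 was at 374, 387, 386 and 364 RPM in TGNT rats and from 363 over a median of 378 to 422 RPM in TGTR rats. On the log2 scale Lamp1 differed by 0.03 ± 0.05 (adjusted p = 1 in edgeR's quasi-likelihood test). Lamp2, Scarb2 and Mcoln1 differed by 0.08, 0.04 and -0.04.

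All 5 proteases were higher in TGTR rats, with log2 fold changes from 0.02 for Tpp1 to 0.07 for Ctsb and none at an unadjusted p under 0.05. Ctsb, which also cuts proteins outside the lysosome when it leaks, was at 436, 444, 447 and 444 RPM in TGNT rats. In TGTR rats it ran from 446 over a median of 462 to 485 RPM. The lowest TGTR rat was just below the highest TGNT rat. For Ctsb edgeR's quasi-likelihood p was 0.129 unadjusted and 0.98985 adjusted, and the exact permutation p of the RPM, also unadjusted, was 0.019. Without both rats of the highest Ttr counts the unadjusted p of that edgeR test was 0.34. Ctsd was at 233, 247, 254 and 249 RPM in TGNT rats and at 244, 251, 251.6, 249, 272 and 249 RPM in TGTR rats. For Ctsd the log2 fold change was 0.04 ± 0.05 (adjusted p = 1 in edgeR's quasi-likelihood test). TGTR replicate 5, with the most Ttr, was the highest of all 10 rats for Ctsd, Ctsl and Tpp1. Without both rats of the highest Ttr counts, 3 of the 5 proteases were higher in TGTR rats and their median went from 0.06 to 0.02.

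Of the glycosidases, 3 of 5 were higher in TGTR rats, or 5 of 5 after the common upward shift of library size scaling. Hexa was at 40.8 ± 3.02 RPM in TGTR and 37.7 ± 0.995 RPM in TGNT rats (exact permutation p = 0.0905). Gla was at 31.8, 28.6, 32.6 and 27.8 RPM in TGNT rats and ran from 26.7 over a median of 29.6 to 32.5 RPM in TGTR rats. The groups covered nearly the same range. Its log2 fold change was -0.01 ± 0.07 (adjusted p = 1 in edgeR's quasi-likelihood test). Gaa, Glb1 and Gusb differed by 0.07, 0.01 and -0.02. Grn was at 59.5, 57.1, 59.1 and 53.2 RPM in TGNT rats, and ran from 51.9 over a median of 54.8 to 62.9 RPM in TGTR rats. On the log2 scale Grn differed by -0.02 ± 0.06 (adjusted p = 1 in edgeR's quasi-likelihood test), and Npc2 and Psap differed by -0.04 and 0.03.

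Tfeb was at 8.85, 9.51, 11.1 and 9.57 RPM in TGNT rats and ran from 9.81 over a median of 10.5 to 11.95 RPM in TGTR rats. Every TGTR rat was above 3 of the 4 TGNT rats. Its log2 fold change was 0.13 ± 0.10 (adjusted p = 0.99092 in edgeR's quasi-likelihood test), and that of Tfe3 was 0.03. Ulk1 was at 95.7, 97.9, 94.9 and 90.1 RPM in TGNT rats and ran from 94.0 over a median of 99.3 to 107 RPM in TGTR rats. The ranges overlapped, with the 4 highest rats all in the TGTR group. Ulk1 differed by 0.08 ± 0.05 on the log2 scale (adjusted p = 0.98985 in edgeR's quasi-likelihood test). Becn1, Atg9a and Wipi2 differed by -0.06, -0.02 and -0.01. Without TGTR replicate 5, which had the lowest Atg9a and Wipi2 of all rats, 3 rather than 1 of these 4 starters were higher in TGTR rats. The common upward shift of library size scaling also put 3 of the 4 above 0. The median of the 5 genes with TCACGTGA was -0.02, with 2 of 5 higher, and that of the 25 members whose windows lack it 0.03, with 16 of 25 higher.

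Map1lc3b was at 206, 233, 223 and 229 RPM in TGNT rats and ran from 198 over a median of 217 to 229 RPM in TGTR rats. Its log2 fold change was -0.04 ± 0.05 (adjusted p = 1 in edgeR's quasi-likelihood test). The other LC3 relatives Map1lc3a, Gabarap and Gabarapl1 differed by 0.05, 0.05 and 0.03, and the conjugation genes Atg5, Atg7 and Atg12 by -0.02, 0.03 and 0.03. Sqstm1 was at 371, 398, 412 and 376 RPM in TGNT rats and ran from 364 over a median of 392 to 429 RPM in TGTR rats. The groups overlapped throughout, with a log2 fold change of 0.03 ± 0.06 (adjusted p = 1 in edgeR's quasi-likelihood test). Optn differed by -0.01.

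Side by side, 23 of the 38 members (60.5%) had opposite signs in the genotype and the treatment comparison, against 48.9% of the 11342 genes with at least 10 counts in both tables. This share was taken from the fits of all rats only, and signs of members changed when 1 rat was left out. Members higher then numbered 17 to 25 in the genotype comparison and 20 to 27 in the treatment comparison. The TGNT rats of the tables are different animals. Ulk1 was -0.14 and 0.08, Tfeb -0.17 and 0.13, Hexa -0.13 and 0.12, Npc1 -0.05 and 0.15, and Cln3 -0.07 and -0.24 on the log2 scale. No member passed the thresholds in either comparison, and the difference between the comparisons was not tested.

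The V-ATPase is the proton pump that acidifies the lysosome, with a cytosolic V1 part that splits ATP and a membrane V0 part that carries protons. Its 4 members were Atp6v1a and Atp6v1b2, which form the ATP-splitting head, the regulatory Atp6v1h, and Atp6v0d1, which joins V0 to V1. Atp6v1a was at 1124, 1116, 1185, 1089 and 1295 RPM in WTNT rats and at 1284, 1183, 1225, 1125 and 1135 RPM in TGNT rats. The ranges overlapped, with a log2 fold change of 0.04. Together with 14 further subunits and accessory proteins, 17 of 18 were higher in TGNT rats, by 0.04 on the log2 scale at the median, while 13 of 18 were higher without WTNT replicate 4, and 15 of 18 with DESeq2's size factors. The differences were small: 1 of the 18, Atp6v1f, had an unadjusted p under 0.05. In TGTR rats 3 of 18 were higher than in TGNT rats, with a median of -0.02, but 9 of 18 were higher without TGTR replicate 5. With library size as the only scaling 12 of 18 were above 0, with a median of 0.02 against the 0.0375 of the genes with at least 10 counts. Subunits of a complex share rats and scaling and are not independent.

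**Figure D3:**
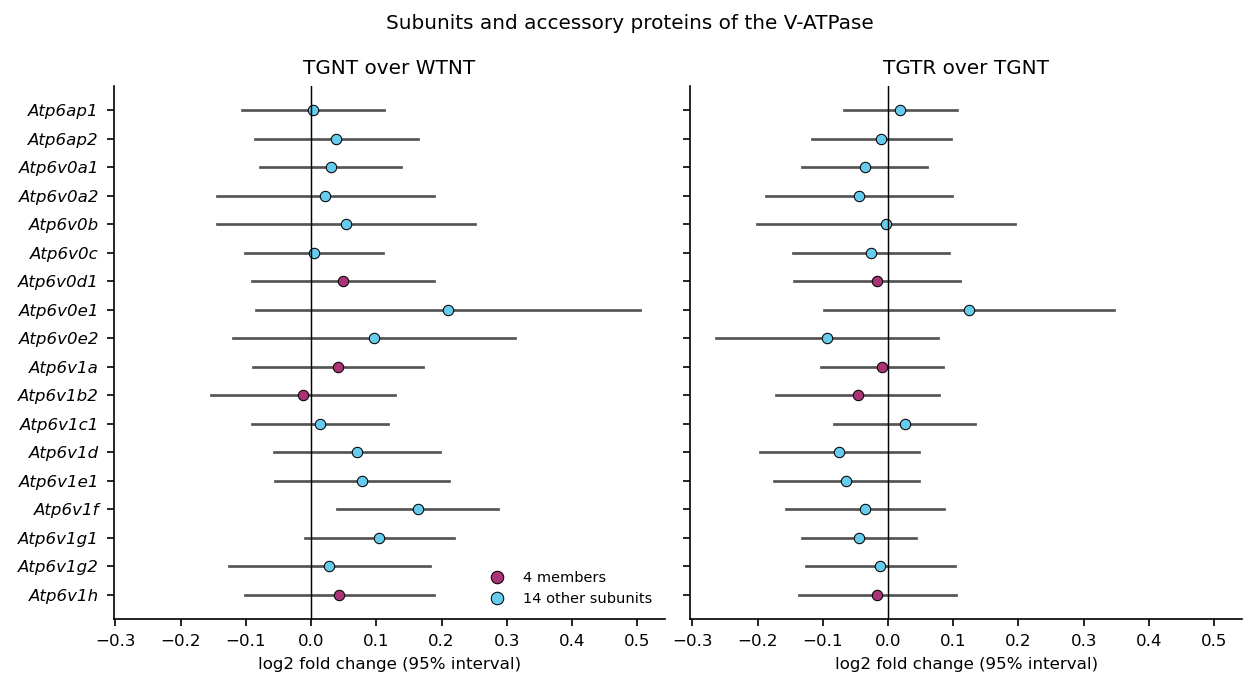
Log2 fold change (x axis) of 18 subunits and accessory proteins of the V-ATPase (y axis), TGNT over WTNT on the left and TGTR over TGNT on the right, with 95% intervals; the 4 members are purple. On the left 17 of 18 points lie right of 0, and on the right 15 of 18 lie left of it, a split that depends on TGTR replicate 5 (9 of 18 without it) and on the scaling, since library size only moves the genes up together and leaves 6 of 18 left of 0; the only interval that leaves out 0 is that of Atp6v1f on the left.

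In a wider list of 110 further genes of the pathway, 0 were called in either comparison by edgeR. Between TGNT and WTNT rats 64 of 110 (58.2%) were higher, against 52.4% of the genes with at least 10 counts. In the same comparison 4 higher and 1 lower had an unadjusted p under 0.05, which 3.89% of those genes passed. The lowest p were those of Atp6v1f, with a log2 fold change of 0.16, Tsc2, which restrains mTORC1, the nutrient-sensing kinase complex, with 0.20, and Cd68, a lysosomal protein of microglia and macrophages, with 1.16 but at most 15 counts per rat. Atp6v1f was at 62.2 ± 2.43 RPM in WTNT and 69.4 ± 2.34 RPM in TGNT rats, without overlap (exact permutation p = 0.00794). It was 1 of 110 in this, against 0.652% of the genes with at least 10 counts. Between TGTR and TGNT rats 58 of 110 (52.7%) were higher, against 50.1% of the genes with at least 10 counts, and 3 higher and 2 lower had an unadjusted p under 0.05, which 6.14% of those genes passed. The lowest p were those of Rb1cc1, or FIP200, the scaffold of the Ulk1 complex, with 0.13, Vps33a, part of the fusion machinery, with -0.20, and Clcn7, a lysosomal chloride-proton exchanger, with -0.12. Rb1cc1 was at 163 ± 7.29 RPM in TGNT and 178 ± 6.13 RPM in TGTR rats, without overlap (exact permutation p = 0.00476, the smallest that 4 rats against 6 can give). It was 1 of 2 of the 110 without overlap, against 1.45% of the genes with at least 10 counts.

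Most members varied little among rats of a group. Their median coefficient of variation was 6.69% in WTNT rats and 8.03% in TGNT rats of the genotype table, and 5.18% in TGNT and 6.31% in TGTR rats of the treatment table, against 8.86% to 11.5% for the genes with at least 10 counts. Those genes were not matched to the members in read counts, so the medians have unlike backgrounds. The highest coefficients were those of members with few reads, Gusb in WTNT (29.5%) and TGTR rats (20.7%), Tfeb in TGNT rats of the genotype table (41.2%) and Cln3 in TGNT rats of the treatment table (12.8%). Npc1 had a spread from 69.1 to 115 RPM in WTNT rats at 434 to 925 counts per rat.

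**Figure D4:**
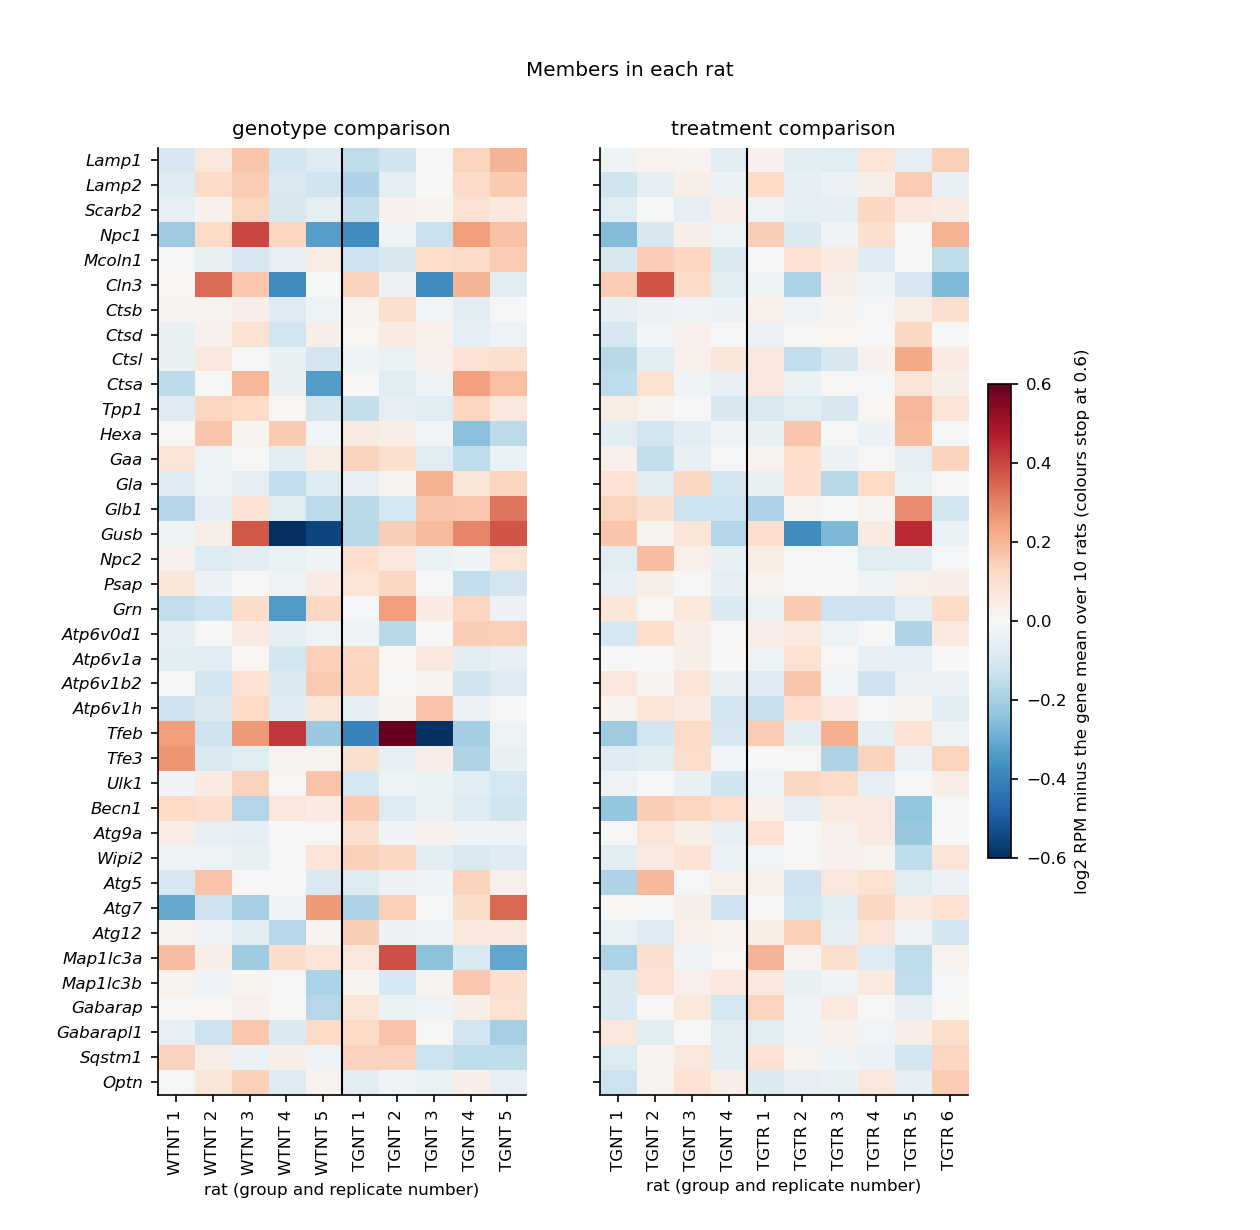
Log2 RPM of each of the 38 members (rows of the map) in each rat (columns), minus the gene's mean over the 10 rats of its table; red is above and blue below that mean, colours stop at 0.6, and the black line divides the groups. Colours reach their limit only for Gusb and Tfeb, in the genotype table, and no block of members changes colour at the black line.

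Npc1, which exports cholesterol from the lysosome, followed the markers of oligodendrocytes from rat to rat. This relation was chosen after its values were seen and is given as a description with no test. In WTNT rats, in the order of their summed RPM of 7 oligodendrocyte markers (4523, 6693, 7919, 8976 and 10211), Npc1 was at 69.1, 74.9, 95.2, 94.6 and 115 RPM. In TGNT rats of that table the sums were 4265, 5240, 6853, 7526 and 7719 and Npc1 was at 67.2, 79.2, 85.5, 104 and 98.3 RPM. Both groups thus rank nearly alike on both measures, and other members followed a like order in this table: in the same order of WTNT rats Ctsa was at 64.5, 72.9, 79.0, 81.7 and 93.6 RPM and Tpp1 at 61.0, 62.5, 66.4, 72.1 and 71.6 RPM. Nothing here sets Npc1 apart from them by a test. In the other table, with other animals, the TGNT sums were 4133, 5875, 6157 and 6578, with Npc1 at 87.6, 97.9, 103 and 107 RPM. In TGTR rats the 3 highest sums, 7257 to 7448, went with the 3 highest values of Npc1, 112 to 121 RPM. The sums of TGTR replicates 2, 3 and 5 were 4868, 5845 and 4856, and Npc1 went down to 98.6 RPM among them. Between TGTR and TGNT rats Npc1 had a log2 fold change of 0.15 ± 0.07 (adjusted p = 0.98985 in edgeR's quasi-likelihood test), and all 7 oligodendrocyte markers were higher in TGTR rats, with a median of 0.22 on the log2 scale. Between TGNT and WTNT rats Npc1 was at -0.05 ± 0.14 and all 7 markers were lower, with a median of -0.23. The part of the oligodendrocyte markers in the differences of Npc1 was not tested. Both measures come from the same library and share its scaling, and the estimated counts of Npc1 were fractional in all 20 rats, as where reads are split between genes.

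**Figure D5:**
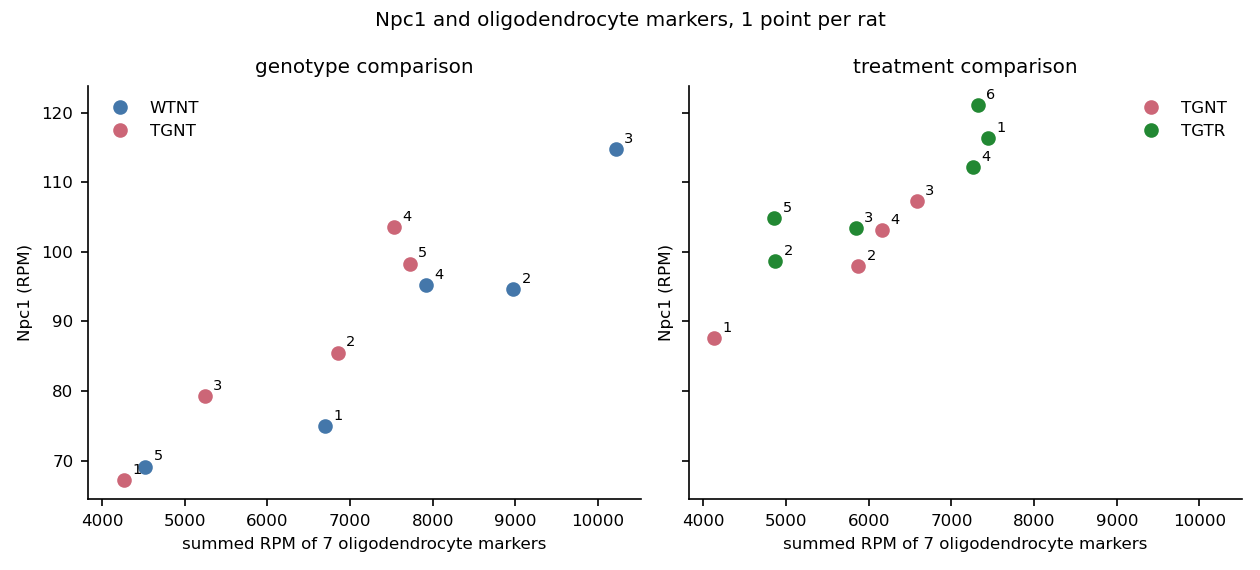
RPM of Npc1 (y axis) against the summed RPM of 7 oligodendrocyte markers (x axis) in each rat, numbered by replicate, for the genotype table (left) and the treatment table (right). From its lowest to its highest value, Npc1 goes in the genotype table from 67.2 RPM at a sum of 4265 to 115 RPM at 10211. In the treatment table it goes from 87.6 RPM at 4133 to 121 RPM at 7321, where the highest sum is 7448.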

How the data were processed

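RNA was isolated with RNeasy and made into strand-specific mRNA libraries (Kapa Stranded mRNA kit). Per the labels, the authors used bcl2fastq 2.17, Bowtie2 2.1.0, RSEM 1.2.15 and edgeR with the rn6 build. For each table of 10 rats the authors deposited RSEM's expected counts per gene symbol, also called estimated counts and not normalized. They also deposited a signal in RPM, the rounded counts scaled to a common library total with TMM factors. There were 0 columns without a sample. Reads shared between genes are split by RSEM, which gave fractional counts for Lamp1, Npc1, Ctsa, Tpp1, Glb1 and Becn1.

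Estimated counts were rounded and fitted per table with edgeR 4.0.16 in R 4.3.3 (TMM, quasi-likelihood test, all 17168 genes, no filter), with Benjamini-Hochberg adjustment. RPM of single genes were compared with exact two-sided permutation tests over all arrangements of the rats. The permutation p were not adjusted for the number of genes. Full statistics are given for members with an unadjusted p under 0.05 or groups without overlap, and for Lamp1, Ctsd, Grn, Tfeb, Sqstm1 and Map1lc3b. Of the wider list, of which 110 of 119 genes were found, the 3 lowest p in each comparison are named; other genes named were chosen after their values were seen. Marker lists covered microglia, neurons, astrocytes, oligodendrocytes, choroid plexus and endothelium. Members and lists were chosen with earlier results of these data known. Alternatives were DESeq2 1.42.0, limma-trend 3.58.1 on log2(RPM + 1) or log2(RPM + 0.1), edgeR's exact and likelihood ratio tests, RLE, upper quartile and library size scaling, filters on low counts (filterByExpr, or a minimum of 10 counts per rat), a replicate block and leaving out each rat. The test was tested on simulated data. Changes simulated there were larger than the difference of any member. Depth was 5848458 to 14175594 estimated counts per rat. The edgeR p-values and intervals come from the same fit, and both take in the spread between rats and counting error.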

Additional observations from a re-analysis of the deposited data

Results flagged for a closer look

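Values of 1 rat far from the rest of its group were found in 9 of 152 groups of 4 to 6 rats, where 1 in 20 would give 7.6. In the genotype comparison they were Becn1 in WTNT replicate 3, at 120.57 RPM against 141 to 148 in the other WTNT rats, and in TGNT replicate 1, at 152.06 RPM against 125 to 133. WTNT replicate 5 was lowest for both Map1lc3b, at 143.87 RPM with the next rat at 161, and Gabarap, at 92.887 RPM with the next rat at 104. In the treatment comparison, TGTR replicate 5, the rat with the most Ttr, was highest for Ctsd, at 271.9 RPM with the next rat at 251.6, and lowest for Atg9a, at 152.96 RPM with the next rat at 179. TGTR replicate 2 had Atp6v1b2 at 689.24 RPM, with the next rat at 606. TGNT replicate 1 had Becn1 at 99.019 RPM, with the next rat at 125, and TGNT replicate 3 had Atp6v1a at 886.84 RPM, with the next rat at 864.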

How the results depend on the processing

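No member passed the thresholds in either comparison under any alternative, leave-one-out fits included. Members at an unadjusted p under 0.05 in the genotype comparison numbered 1 with DESeq2 or library size as the only scaling, 0 with the other 2 edgeR tests (exact, likelihood ratio), and 0 to 3 without 1 rat. In the treatment comparison they numbered 0 with DESeq2, with those 2 edgeR tests or without both rats of the highest Ttr counts (an alternative chosen after seeing the data), 3 with library size only, 2 with limma-trend at either pseudocount, and 0 to 2 without 1 rat. Over all genes, those 2 tests each called 4 rather than 2 in the genotype comparison. In the treatment comparison the calls were 3 with DESeq2, 4 with edgeR's exact and 5 with its likelihood ratio test rather than 0. With the replicate number as a block, members at an unadjusted p under 0.05 numbered 0 in both comparisons; rats of the same number did not deviate together in every pair (correlations -0.2 to 0.326 and -0.584 to 0.139), and a rat correlated best with its own number in 2 of 5 and 0 of 4 pairs, so the numbers were not taken as pairs. The log2 fold change of Ctsd in the genotype comparison turned to -0.0047 with DESeq2, -0.0032 with RLE and -0.0006 with filterByExpr, and without 1 rat it ran from -0.0282 to 0.0184. Without 1 rat, Cln3 ran from -0.1625 to 0.02 and Lamp1 from -0.0318 to 0.0724 in the genotype comparison, and Gla from -0.0516 to 0.0267 in the treatment comparison. With library size only, which moved the median of the genes with at least 10 counts from 0.0002 to 0.0375 in the treatment comparison, Gla, Grn and Map1lc3b turned to 0.024, 0.0148 and 0.0005 there, all below that median. Unadjusted p over the alternatives ran from 0.0103 to 0.129 for Gla and 0.00672 to 0.118 for Ulk1 (genotype) and from 0.0163 to 0.162 for Cln3 (treatment) in the tools' own tests, and adjusted p of these members with edgeR, DESeq2 or limma stayed at 0.754 or above. Apart from the common shift with library size, the cause of these changes was not tested. Tfeb, Gusb and Cln3, with at most 160 counts in any rat, had the largest standard errors of the members in both comparisons. The parts of depth and of spread between rats in these errors were not tested.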

Other observations

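In TGTR replicate 5 the lysosomal enzymes and the starters of autophagy lay on opposite sides of their means. The mean log2 deviation from the average of the 10 rats was 0.13 for the 5 proteases, 0.15 for the 5 glycosidases and -0.15 for the 4 starters Ulk1, Becn1, Atg9a and Wipi2. In the other 9 rats of the table these means ran from -0.09 to 0.05, from -0.08 to 0.06 and from -0.08 to 0.07. This rat also had the fewest reads of its table, with 9215039 estimated counts, the highest summed choroid plexus markers, at 2830 RPM against 3.60 to 133, and the lowest summed neuronal markers, at 5711 RPM against 6124 to 8095. It was singled out after its values were seen, and the part of these measures was not tested.

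Mitf, a relative of Tfeb outside the members, was at 6.00 ± 1.09 RPM in TGTR and 4.58 ± 0.446 RPM in TGNT rats, without overlap (exact permutation p = 0.019), with 43 to 80 counts per rat and an adjusted p = 0.96386 in edgeR's quasi-likelihood test. Of the genes with at least 10 counts, 1.45% had groups without overlap in this comparison. It was named after its values were seen.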
